A study of Homo sapiens with 6 samples.

Results

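Constant distal intergenic regions are stretches of open chromatin far from any protein-coding gene that were found in every library of the study. Peaks of the 6 libraries were merged wherever they overlapped by at least 1 bp, which gave 69562 union regions. A region was kept if it lay on chromosomes 1 to 22 or X and was held by a peak of all 6 libraries. Its centre also had to lie outside all protein-coding and long noncoding RNA (lncRNA) genes of RefSeq and more than 50 kb from every protein-coding gene end. The regions were thus chosen by position and by the presence of a called peak in all 6 libraries. This needs a peak strong enough to be called in each library, and it leaves out regions without a called peak in a group. The rule left 2247 regions, 9.64% of the 23303 regions held by all 6 libraries on these chromosomes.

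The study mapped open chromatin with ATAC-seq, in which a transposase cuts accessible DNA and leaves sequencing adapters there. The material was nuclei of Jurkat cells, an established line of human leukaemic T cells. The 3 libraries of the normal gravity group are NG 1, NG 2 and NG 3, and the 3 libraries of the simulated microgravity group are SMG 1, SMG 2 and SMG 3. For every library 50000 cells were lysed for 3 min and the released nuclei were treated with transposase for 30 min at 37 °C, with no other agent or genotype named. In the microgravity group the isolated nuclei were rotated in a random positioning machine at 30 degrees per second for 30 min, so the groups compare nuclei and not living cells. The labels name no separate cultures behind the 3 libraries of a group, and a p-value here is therefore about the spread from library to library, which can be purely technical. Where 3 values are given for a group, they follow the order of its libraries 1, 2 and 3. Of 7 T cell marker genes, 6 had a peak within 1 kb of a gene end in all 6 libraries, and TRAC, the constant part of the T-cell receptor alpha chain, had none. No marker of B cells (4 genes) or myeloid cells (4 genes) had one in any library, while GNLY, a cytotoxic granule gene on the NK cell list, had one in all 6.

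Open chromatin far from genes commonly marks enhancers, which are short stretches bound by transcription factors that act on a promoter across a distance. In T cells many such elements lie in wide gene-poor stretches beside the genes of lineage regulators. Other open stretches far from protein-coding genes are starts of noncoding RNA genes, copies of ribosomal RNA genes, or repeats near centromeres.

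No genome sequence was used here, so sequence was shown only where a RefSeq window of 300 bases around an annotated transcript start (250 bases before and 50 bases after, build GRCh38.p14) overlapped a region. The rule keeps the centre of a region outside lncRNA genes but lets its edge reach one, and 48 regions (2.14%) did so. In all, 34 start windows, each of an lncRNA, overlapped a constant distal region and 30 lay wholly inside one. These 30 windows lay in 27 regions, and some of them overlap each other. Their median GC content was 61.3%, beside 50.0% for all 12829 lncRNA windows and 58.7% for all 34961 windows. They held a median of 10.5 CG dinucleotides, from 2 to 59, beside 5 in all lncRNA windows and 14 in all windows. In 13 of the 30 there were 20 or more.

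The first 3 windows show the CG-rich kind, with each CG in capitals, in the direction of transcription. MIR17HG is the host transcript of the miR-17-92 cluster of growth-promoting microRNAs, MIRLET7A1HG hosts let-7 microRNAs, and JPX is an lncRNA of the X-inactivation centre. The MIR17HG window is chr13:91347437-91347736 (+), the MIRLET7A1HG window is chr9:94166008-94166307 (+) and the JPX window is chrX:73944074-73944373 (+).
MIR17HG: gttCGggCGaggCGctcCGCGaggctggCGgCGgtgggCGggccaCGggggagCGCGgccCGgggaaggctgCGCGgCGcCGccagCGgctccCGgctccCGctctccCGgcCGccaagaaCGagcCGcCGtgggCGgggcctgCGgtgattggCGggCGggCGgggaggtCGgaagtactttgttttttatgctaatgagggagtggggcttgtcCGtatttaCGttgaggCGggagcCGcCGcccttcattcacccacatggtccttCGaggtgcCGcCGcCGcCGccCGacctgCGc
MIRLET7A1HG: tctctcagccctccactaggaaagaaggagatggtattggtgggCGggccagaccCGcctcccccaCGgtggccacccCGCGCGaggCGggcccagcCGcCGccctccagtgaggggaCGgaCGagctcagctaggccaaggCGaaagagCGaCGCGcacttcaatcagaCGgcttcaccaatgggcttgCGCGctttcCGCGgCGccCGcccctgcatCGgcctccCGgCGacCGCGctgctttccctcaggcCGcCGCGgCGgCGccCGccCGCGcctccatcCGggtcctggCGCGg
JPX: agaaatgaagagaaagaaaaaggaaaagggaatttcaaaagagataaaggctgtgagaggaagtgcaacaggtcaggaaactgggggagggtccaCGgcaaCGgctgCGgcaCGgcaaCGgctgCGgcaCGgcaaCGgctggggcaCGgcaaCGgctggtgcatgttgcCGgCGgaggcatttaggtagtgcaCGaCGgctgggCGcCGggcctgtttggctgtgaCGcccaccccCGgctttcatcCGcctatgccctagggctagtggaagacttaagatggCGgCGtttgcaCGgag

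The windows held 42 CG in MIR17HG, 38 in MIRLET7A1HG and 22 in JPX. The region at MIR17HG, chr13:91346973-91347890, had score ranks of 42.1, 47.0 and 42.5 in NG and 44.5, 54.9 and 47.3 in SMG. A score rank is the place of a region by the −log10 q-value of its best peak among the 23303 constant regions of the same library, from 0 (weakest) to 100 (strongest). The groups overlapped, and the values sat near the middle of all constant regions in each library. The hairpins MIR17, MIR18A, MIR19A, MIR20A, MIR19B1 and MIR92A1 began between 2715 and 3424 bp beyond the edge of this region. The region at MIRLET7A1HG, chr9:94165700-94166356, ranked higher, at 90.7, 91.0 and 91.9 in the NG libraries and 88.0, 92.3 and 86.5 in the SMG libraries. The region at JPX, chrX:73943808-73944837, ranked at 81.2, 76.0 and 60.0 in NG and at 79.9, 68.3 and 60.9 in SMG, again with overlapping groups.

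The next 3 windows show matches to motifs of T cell transcription factors, in capitals. The windows were searched on both strands for 8 motifs: CTCF core, ETS (ACAGGAAG), RUNX (TGTGGTT), that of the GATA family (letters AGATAAG), AP-1 (TGANTCA), E-box (CAGCTG), TCF/LEF (CTTTGAA) and MYB (TAACNG). LINC02694, whose nearest protein-coding gene is the T cell signalling gene RASGRP1, has matches to AP-1, RUNX and MYB. FAM230B has matches to ETS, TCF/LEF and RUNX, and IER5L-AS1 to TCF/LEF and RUNX. Their windows are chr15:38696348-38696647 (+), chr22:21167615-21167914 (+) and chr9:129235979-129236278 (+).
LINC02694: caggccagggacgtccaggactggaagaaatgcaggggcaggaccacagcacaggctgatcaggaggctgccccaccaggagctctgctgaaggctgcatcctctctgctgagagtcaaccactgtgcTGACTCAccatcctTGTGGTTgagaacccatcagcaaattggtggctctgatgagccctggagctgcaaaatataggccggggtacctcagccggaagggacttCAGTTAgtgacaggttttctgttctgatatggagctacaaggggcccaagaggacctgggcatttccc
FAM230B: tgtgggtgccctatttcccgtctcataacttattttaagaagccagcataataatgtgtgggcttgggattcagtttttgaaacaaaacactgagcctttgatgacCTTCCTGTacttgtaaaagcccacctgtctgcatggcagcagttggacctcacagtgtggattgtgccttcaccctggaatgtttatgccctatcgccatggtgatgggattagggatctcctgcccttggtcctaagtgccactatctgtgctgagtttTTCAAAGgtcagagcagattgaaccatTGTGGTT
IER5L-AS1: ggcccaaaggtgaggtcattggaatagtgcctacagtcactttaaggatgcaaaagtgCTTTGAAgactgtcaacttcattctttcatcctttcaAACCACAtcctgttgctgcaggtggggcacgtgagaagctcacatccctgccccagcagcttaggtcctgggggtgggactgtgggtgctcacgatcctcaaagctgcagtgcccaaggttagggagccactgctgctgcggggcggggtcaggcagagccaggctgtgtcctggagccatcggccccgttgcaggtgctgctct

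The region at LINC02694 was weak, with a mean score rank of 12.5 ± 10.1 (SD, n = 6 libraries), that at FAM230B stood at 25.3 ± 16.9, and that at IER5L-AS1 at 76.3 ± 8.70. Among the 30 windows, RUNX matched in 4 (13.3%), beside 5.28% of lncRNA windows and 4.28% of all windows of the same length. AP-1 matched in 5 (16.7%), beside 10.3% and 7.68%, and MYB in 5 (16.7%), beside 23.3% and 20.7%. E-box also matched in 5 (16.7%, beside 17.8% and 18.0%), TCF/LEF in 2 (6.67%, beside 5.81% and 4.42%) and ETS in 1 (3.33%, beside 3.26% and 2.99%). CTCF core (3.12% and 4.63%) and GATA (3.32% and 2.67%) matched in 0 of the 30. A match is only a run of letters in the window, and 15 of the 30 windows held none of the motifs.

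The libraries held 37782, 43713 and 40601 peaks in NG and 42222, 42399 and 39624 in SMG. The lists give no read counts. The lowest local background recovered from each list, a stand-in for depth, was a pileup of 1.17 to 1.77 fragments in NG and 1.59 to 1.73 in SMG. SMG 3 stood apart in the share of its peaks that were distal intergenic, 10.8% against 12.8 to 13.7% in the other 5 libraries. Its peak names also carry the word "normalized", which no source used here explains.

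The rule keeps a smaller part of the distal regions than it would of regions at genes. Of the 12135 distal union regions, the 2247 described here (18.5%) were held by all 6 libraries and 6292 (51.9%) by 1 library. At protein-coding gene ends, taken as 1 kb to each side, 7828 of 11777 regions (66.5%) were held by all 6. Within protein-coding or lncRNA genes but more than 50 kb from every protein-coding gene end, 3058 of 12060 (25.4%) were. Regions of this last class are called deep inside genes below, but they can lie at the end of an lncRNA gene. These shares are a description, since being held by all libraries is part of the rule.

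Among constant regions the distal ones ranked lower than those at gene ends. Their median score rank was 41.6, 40.4 and 39.1 in NG and 41.7, 41.8 and 36.7 in SMG. Gene-end regions stood between 65.2 and 68.6 in the same libraries, so no library of the distal class reached the gene-end values. The mean difference was −26.6 ± 2.81 (SD, n = 6 libraries), lower in 6 of 6 libraries, with an exact sign-flip permutation p of 0.03125 (two-sided), the smallest that 6 libraries allow. The requirement of a peak in all 6 libraries kept 18.5% of distal and 66.5% of gene-end regions, and its part in this difference was not tested.

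Against constant regions deep inside genes the distal regions ranked slightly lower, by −2.47 ± 2.32 (SD, n = 6 libraries; range −7.13 to −0.993; lower in 6 of 6; exact sign-flip permutation p = 0.03125, two-sided). The largest gap was in SMG 3, and without that library the mean was −1.54 with an exact p of 0.0625, the smallest that 5 libraries allow. This difference held under some settings and not under others. It was −2.55 with a distance limit of 100 kb, −2.35 with a merging overlap of 100 bp and −2.59 in single-peak regions (exact sign-flip p = 0.03125 each). It was −1.16 (exact p = 0.1875) with a distance limit of 25 kb and −1.57 (exact p = 0.125) when ranked by fold enrichment. It turned to 1.63 (exact p = 0.25) with peaks of a score of at least 50. Covered widths differed in the same direction. The median width of distal regions was 484, 577 and 535 bp in NG and 544, 567 and 552 bp in SMG. The mean difference was −39.5 ± 9.12 bp against regions deep inside genes and −267 ± 21.2 bp against gene ends, narrower in 6 of 6 libraries each (SD, n = 6; exact p = 0.03125 for both, two-sided).

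**Figure D1:**
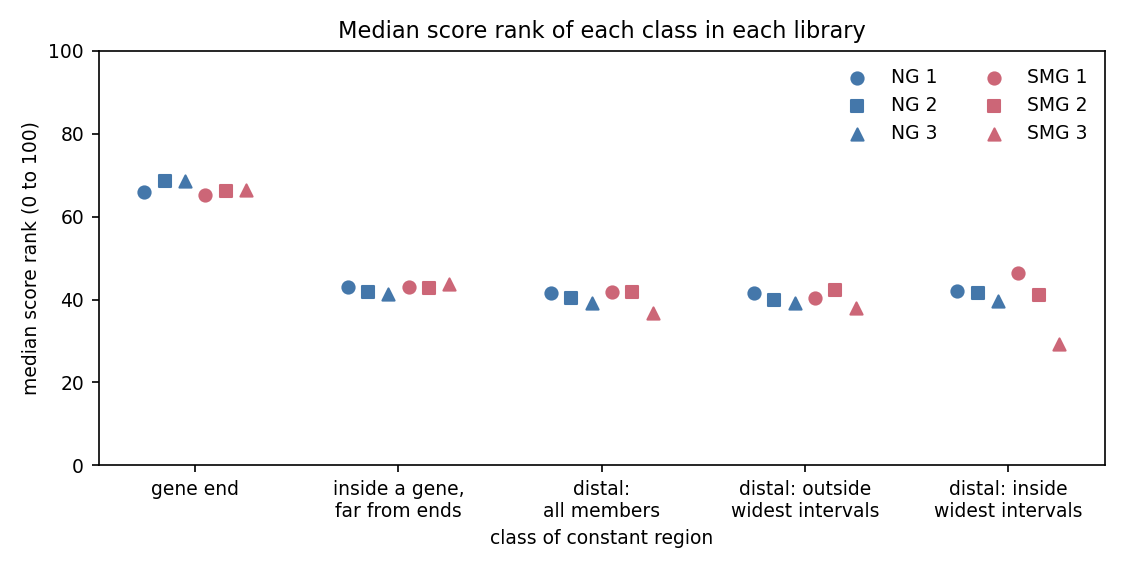
Median score rank (y axis, 0 to 100) of each class of constant region (x axis) in each library; blue symbols are NG and red symbols SMG libraries, 1 point per library. Gene-end regions sit between 65.2 and 68.6 and distal regions between 36.7 and 41.8, and inside the widest gene-free intervals SMG 3 sits at 29.3.

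The peaks of one distal region were usually single but not sharply placed. In 91.7% of the 2247 regions every library had exactly 1 peak, against 86.8% of all constant regions. The summit moved over a median of 184 bp between the 6 libraries, against 178 bp over all constant regions. It stayed within 50 bp in 9.35% of distal regions and in 13.02% of all constant regions, and within 100 bp in 22.2% and 28.2%. Summit heights were low: the median pileup was 17, 26 and 22 fragments in NG and 23, 26 and 22 in SMG.

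The next comparison asked whether distal open chromatin differed between simulated microgravity and normal gravity. No difference passed a test. Distal intergenic peaks of any kind made up 13.7, 13.4 and 12.8% of the peaks of NG and 13.4, 12.99 and 10.8% of those of SMG. The low value belongs to SMG 3, and the other 5 overlap. The means were 13.3 ± 0.455% and 12.4 ± 1.37% (SD; exact permutation test of 3 against 3, p = 0.4, two-sided). Without SMG 3 the difference shrank from −0.913 to −0.129 percentage points. With 3 against 3 libraries no exact permutation p can be below 0.1.

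Within the constant distal regions the groups also overlapped. The median score rank was 40.3 ± 1.23 in NG and 40.1 ± 2.95 in SMG (SD; exact permutation test of 3 against 3, p = 1, two-sided), and the sign of this difference of −0.274 turned without SMG 3 (1.43) and without NG 1 (0.331). The median width was 532 ± 46.6 bp in NG and 554 ± 11.7 bp in SMG (exact permutation p = 0.6, n = 3 each), a difference that turned to −1.67 bp without NG 1, the library with the lowest background pileup. Median fold enrichment over the local background was 6.25, 7 and 6.79 in NG and 6.73, 7.14 and 6.38 in SMG (exact permutation p = 0.8, n = 3 each).

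Region by region, limma on the normal scores of the ranks called 0 of the 2247 distal regions at an adjusted p under 0.05, and 0 of all 23303 constant regions (0%). Regions whose peak was gained or lost in a group are not among the constant regions, so this test could not see them. At an unadjusted p under 0.05, 135 distal regions (6.01%) passed, beside 5.52% of all constant regions. Of these, 71 were higher in SMG, 3.16% of distal regions against 2.71% of all, and 64 were lower, 2.85% against 2.81%. The share near the background is not a result about the distal regions. For width, limma called 0 as well, and 132 distal regions (5.87%) passed the unadjusted threshold, beside 5.02% of all. Of these, 65 were wider in SMG by rank, 2.89% against 2.64% of all, and 67 were narrower, 2.98% against 2.38%. The median difference over distal regions was −0.0108 on the normal-score scale, and 1087 regions had a positive and 1160 a negative difference. In simulated ranks of 23303 regions, a shift of 2 on this scale was called for 64% of 100 changed regions. A shift of 1 was called for 2% of another 100, and no other region was changed. Most changes of the smaller size were thus missed in this simulation, and larger numbers of changed regions were not tried.

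**Figure D2:**
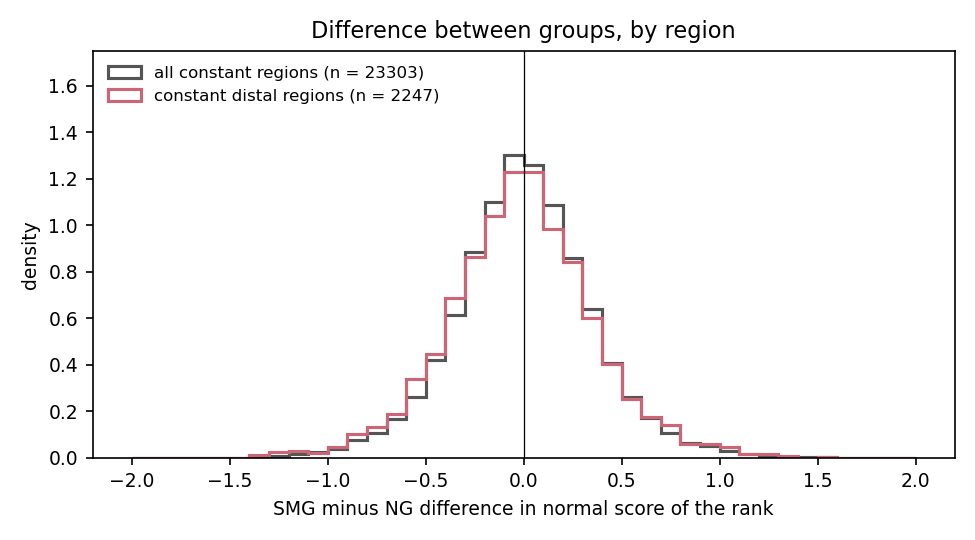
Density (y axis) of the SMG minus NG difference in the normal score of the score rank (x axis, no unit) over all 23303 constant regions (grey line) and the 2247 constant distal regions (red line). Both lines centre near 0, with a median of −0.0108 for the distal regions.

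The distal regions with the smallest unadjusted p in each direction had separate groups but adjusted p-values of 0.870 (limma, Benjamini-Hochberg), and they were picked for that separation. The region chr21:8376876-8377746, in the stretch of chromosome 21 that holds ribosomal RNA genes, ranked at 3.14, 5.92 and 15.9 in NG and at 55.9, 47.6 and 54.1 in SMG (difference 1.54, SE 0.269). Its ranks were low in all NG libraries and middling in all SMG libraries. In the other direction, chr6:68572522-68573200, beside the adhesion receptor gene ADGRB3, ranked at 37.7, 37.9 and 32.4 in NG and at 9.19, 2.78 and 5.73 in SMG (difference −1.25, SE 0.236). The other 4 with higher ranks in SMG lay nearest LOC107983958, LOC102724334, KCNMA1, a potassium channel gene, and ANKRD20A1. The other 4 with lower ranks lay nearest HTR1F, a serotonin receptor gene, NDST4, a heparan sulfate enzyme gene, LOC107987020 and APCDD1, a Wnt inhibitor gene. None of the 10 regions passed the adjusted test.

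Distances to protein-coding genes ran from 50.1 kb to 4158 kb with a median of 177 kb. There were 688 regions at 50 to 100 kb, 945 at 100 to 500 kb and 614 farther than 500 kb, with median score ranks of 39.3, 36.8 and 37.4. The rank thus showed no steady order with distance. The median width was 569, 557 and 482 bp in the same bands. Just inside the limit of 50 kb lay chr2:236631979-236632884, 50.078 kb from the chemokine receptor gene ACKR3, at a mean score rank of 48.0, and regions near LLPH (23.1) and TTC39B (72.3). Just outside it lay regions near TACC1 (28.4), POTEM (75.05) and MCHR2 (15.7).

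Constant distal regions were unevenly spread and gathered in a few gene-free intervals. On each chromosome the widest stretch free of protein-coding genes was taken, and the 23 intervals held 447 regions (19.9%). Of these, 345 lay in only 4 intervals, 99 on chromosome 1 between LINC02798 (listed as protein-coding) and H3-7, 96 on chromosome 5 next to EMB, 66 on chromosome 10 between ZNF37A and ZNF33B, and 84 on chromosome 19 between ZNF254 and UQCRFS1. As background, these stretches include the centromeres, where the reference carries long arrays of satellite repeats. Over the whole width of the interval, the density was 20.4 regions per Mb on chromosome 5, 16.6 on chromosome 19, 14.9 on chromosome 10 and 4.41 on chromosome 1. The chromosome 1 interval is 22.4 Mb wide. In it, 83 regions lay 53.6 to 3719 kb from LINC02798 and 16 lay 638 to 717 kb from H3-7. The long stretch between these held none, so its density does not compare directly with the others. On chromosome 7 the interval of 6.28 Mb held 2, on chromosome 8 it held 1 and on chromosome X 0. No source used here says how reads in such repeats were placed, and the part of this in these counts was not tested.

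**Figure D3:**
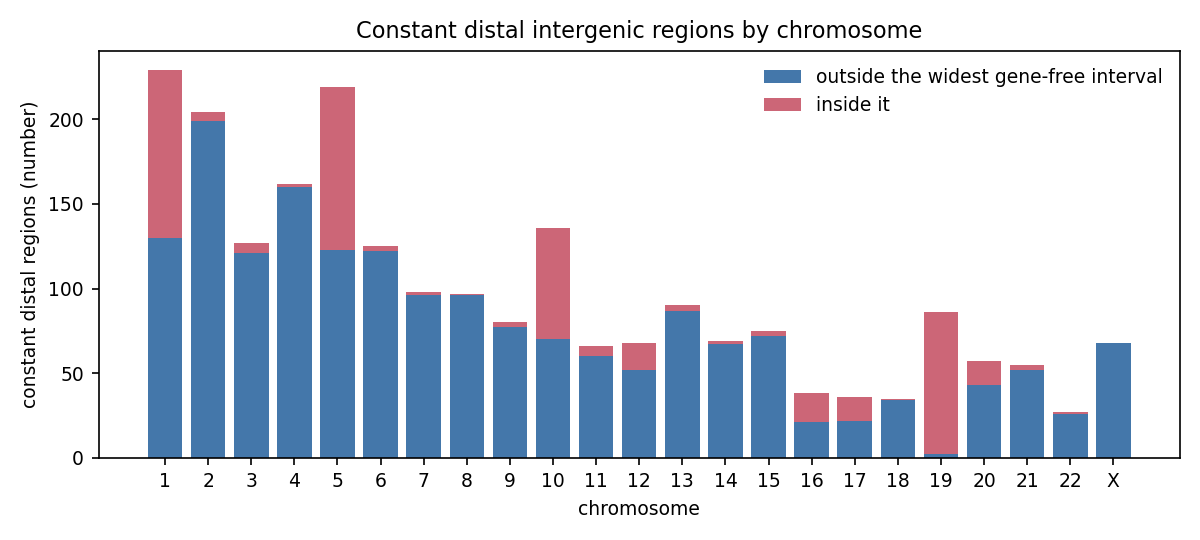
Number of constant distal regions (y axis) on each chromosome (x axis), with those inside the widest stretch free of protein-coding genes in red and the others in blue. On chromosomes 1, 5, 10 and 19 the red part holds 99, 96, 66 and 84 regions, and most regions of chromosome 19 are red.

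The 4 intervals were picked because they held the most regions, so close spacing there follows from the choice. The median gap between neighbours was 19.03 kb in them and 484 kb outside the widest intervals. Gaps outside also span stretches with genes, where the rule allows no region. Regions in the 4 intervals were narrow, with a median width of 459 bp against 563 bp outside the widest intervals. Their local background over the library minimum was 1.32, against 1.62. Their score ranks did not stand higher, with a median of 37.4 against 37.6. The peaks of any kind in the 4 intervals numbered 599, 867 and 685 in NG and 786, 767 and 586 in SMG. The counts were low in NG 1 and SMG 3 and high in NG 2, and as a share of all peaks they ran from 1.48% in SMG 3 to 1.98% in NG 2.

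SMG 3 ranked the constant regions of the widest intervals lower than the other libraries did. The median score rank there was 42.1, 41.7 and 39.5 in NG, 46.3 and 41.2 in SMG 1 and SMG 2, and 29.3 in SMG 3. The group means were 41.1 ± 1.37 and 38.9 ± 8.73 (SD; exact permutation test of 3 against 3, p = 0.8, two-sided). Outside the intervals SMG 3 was at 38.1, against 39.1 to 42.2 in the other 5, and the group means were 40.2 ± 1.24 and 40.2 ± 2.06 (exact permutation p = 1, n = 3 each). Distal peaks elsewhere than in the 4 intervals also made up a lower share in SMG 3, 9.36% of its peaks against 11.1 to 12.2% in the other 5. Whether the step behind the word "normalized" bears on these values was not tested.

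Chaining regions at gaps of at most 50 kb left 1180 regions alone and put 1067 into 338 groups. Groups of 5 or more numbered 39 with 374 regions, and 26 of them lay in the widest intervals. The 3 densest held 86 regions. The group chr5:49182895-49666839 held 37 regions, the nearest 730 kb from EMB, a cell adhesion gene. Its median score rank was 44.2, 47.2 and 46.0 in NG and 53.9, 44.1 and 25.5 in SMG, and SMG 3 was again the lowest. The group chr10:40715155-41134288 held 25 regions, with medians of 39.7, 33.6 and 50.1 in NG and 46.6, 32.2 and 21.3 in SMG. The group chr19:26838510-27189867 held 24, with medians of 40.5, 40.9 and 28.8 in NG and 38.6, 36.6 and 35.0 in SMG. SMG 3 was the lowest library in the first 2 of these groups and within the range of the others in the group on chromosome 19.

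Outside the widest intervals, 13 groups of 5 or more remained. The group with most regions, chr21:8376876-8471695, held 15 in the stretch of ribosomal RNA genes, with a median score rank of 24.5, and a second group on chromosome 21 held 8. CXCR4, the chemokine receptor that holds lymphocytes in bone marrow and lymphoid tissue, was the nearest gene of 11 constant distal regions, 62.4 to 305.6 kb away, and 10 of them formed a group. BCL11B, a transcription factor required for commitment to the T cell lineage, was the nearest gene of 9, and 5 of them formed a group. A further group of 11, chr4:108355508-108528241, lay 187 to 359 kb from the nearer end of LEF1, a transcription factor of thymocyte development. The nearest genes of this group are, however, LOC124900752 and RPL34. Other groups lay between MCHR2 and SIM1 (7 regions), between GATB and FBXW7, the ubiquitin ligase gene that restrains NOTCH (7), between CD83 and JARID2 (6), between HDAC4 and NDUFA10 (6), and, with 5 regions each, between TBL1XR1 and KCNMB2, DEFB131A and SLC2A9, FANCL and LOC124906010, and HS6ST1 and RAB6C. Whether any of them acts on a gene named here was not measured.

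Mean ranks of the 11 regions nearest CXCR4 ran from 9.91 to 91.0, and the 5 nearest the gene were all below 40. The region 264 kb away, chr2:136381989-136382892, was the strongest, with ranks of 90.6, 91.1 and 96.7 in NG and 95.4, 84.3 and 87.7 in SMG. Its neighbour at 277 kb, chr2:136394475-136395190, ranked at 43.8, 30.9 and 24.97 in NG and at 17.2, 4.403 and 14.3 in SMG. That neighbour was lower in every SMG library than in any NG library, with an adjusted limma p of 0.883. The region 62.4 kb away, on the other side of the gene, ranked at 5.84, 3.43 and 10.4 in NG and at 9.75, 29.0 and 57.0 in SMG, with overlapping groups. The regions of the stretch at 204, 241, 264 and 306 kb, had mean ranks of 72.8, 73.5, 91.0 and 70.0, all above the median of 47.9 over all constant regions.

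The 9 regions nearest BCL11B fell into 2 sets, 5 at 959 to 1001 kb and 4 at 184 to 262 kb. In the far set chr14:98198287-98199024 was the strongest, with ranks of 72.4, 79.7 and 73.1 in NG and 61.6, 84.8 and 83.5 in SMG. In the near set chr14:98925899-98926714 ranked at 69.2, 65.6 and 72.9 in NG and at 45.9, 73.4 and 73.4 in SMG. Both held steady over libraries apart from SMG 1, while chr14:98167360-98168589, the farthest, ranged from 10.2 in NG 3 to 84.2 in SMG 3. In the group beyond LEF1, chr4:108359300-108360902 led with ranks of 95.9, 88.5 and 92.3 in NG and 95.4, 93.6 and 99.9 in SMG, on a local background 11.2 times the library minimum. Its neighbour chr4:108466797-108467830 ranked at 16.6, 6.68 and 7.56 in NG and at 41.7, 21.97 and 35.6 in SMG (limma adjusted p = 0.870).

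**Figure D4:**
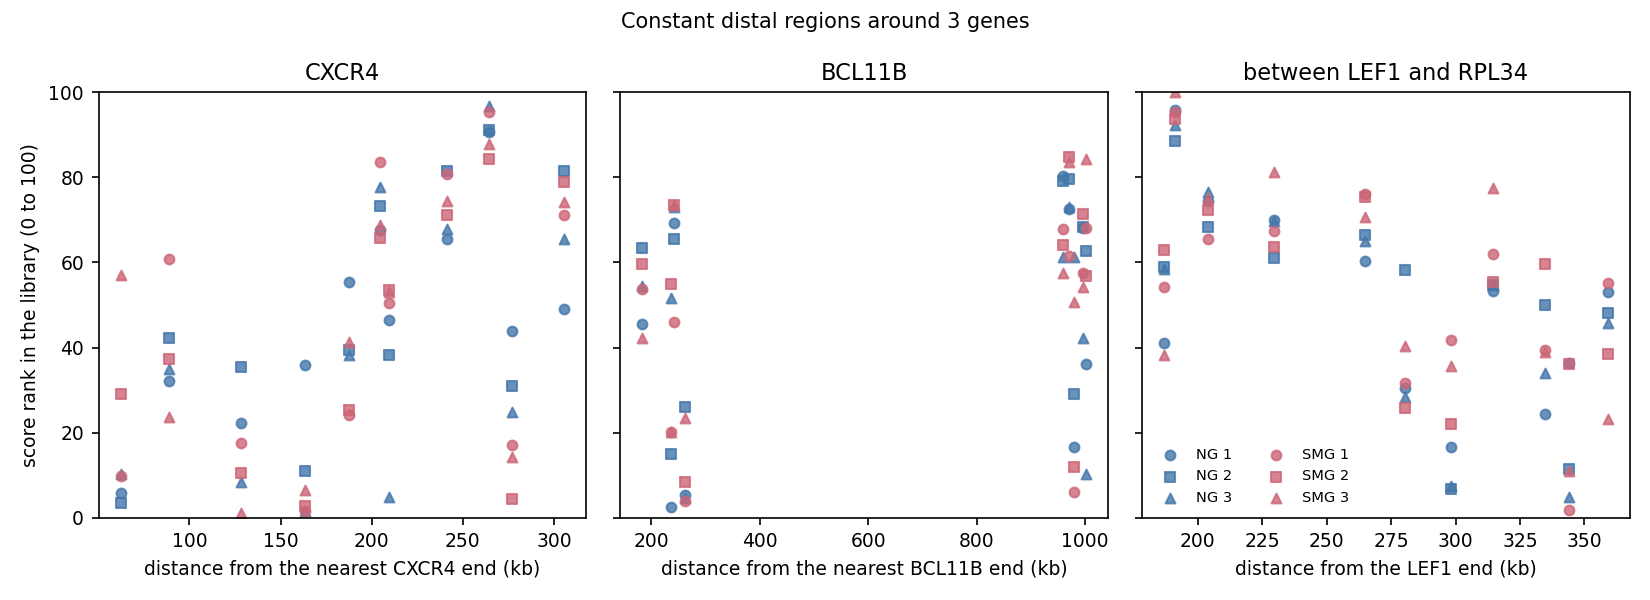
Score rank in each library (y axis, 0 to 100) of the constant distal regions nearest CXCR4, of those nearest BCL11B and of the group between LEF1 and RPL34, against the distance from the named gene in kb (x axes); blue symbols are NG and red symbols SMG libraries. The region at 264 kb from CXCR4 has ranks of 84.3 to 96.7 in the 6 libraries and the top region beyond LEF1 88.5 to 99.9.

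Genes on 13 lists were looked up as the nearest protein-coding gene of a constant distal region. A gene can be found this way only if it borders a wide gene-free stretch, so counts for 12 of the lists are given over all genes of a list and over those that do. Of 32 transcription factor genes of T cells, 13 were the nearest gene of at least 1 region, and all 13 were among the 22 that border such a stretch (59.1%). Over all 19821 protein-coding genes the count was 1130 (5.70%), or 21.5% of the 5256 that border one. The 39 regions next to T cell transcription factor genes had mean score ranks from 7.05 to 92.9 with a median of 53.0, beside 37.7 for all distal regions. Medians were higher next to B cell (62.6, 4 regions), immediate early (62.1, 7 regions) and T cell identity genes (54.5, 4 regions). None of them passed the adjusted limma test in either direction.

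After BCL11B came ID2, an inhibitor of E proteins (6 regions), TOX, a factor of thymocyte selection (4), ETS1, an ETS factor of lymphocytes (4), RUNX1, a factor of blood development (3) and GATA3, a factor of early and helper T cells (3). The strongest region next to ETS1, chr11:128039143-128040066 at 419 kb, ranked at 91.5, 85.9 and 65.4 in NG and at 84.4, 87.7 and 95.1 in SMG. Next to GATA3, chr10:8331439-8332926 at 257 kb ranked at 86.6, 82.3 and 70.3 in NG and at 86.0, 82.5 and 71.6 in SMG, with nearly the same values in both groups. Next to PRDM1, a regulator of effector lymphocytes with 2 regions, chr6:105810256-105810961 at 182 kb ranked at 97.2, 95.1 and 96.6 in NG and at 92.9, 92.8 and 82.9 in SMG. Each SMG value there was below each NG value, with no call by limma.

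Of 26 T cell identity genes, 3 were nearest genes, 3 of the 7 that border a wide stretch: ICOS, a costimulatory receptor (2 regions), CD2, an adhesion receptor (1), and PTPRC, the CD45 phosphatase (1). The region 58.1 kb from CD2 ranked at 60.7, 64.9 and 50.4 in NG and at 62.3, 57.2 and 39.0 in SMG. Among regulators of T-cell leukaemia, MYC was the nearest gene of 2 regions and TCF12, MYB and MEF2C of 1 each. Of 26 immediate early genes 4 were nearest genes, 4 of the 11 bordering ones, DUSP6, DUSP4 and JUN with 2 regions each and EGR2 with 1. The region 102 kb from DUSP6, a phosphatase of MAP kinases, ranked between 88.1 and 95.2 in all 6 libraries. Of 32 cytokine and receptor genes 4 were, 4 of the 10 bordering ones: CXCR4, IL15, IL6 and IL21, with a median rank of 37.9 over 14 regions.

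Lists of other lineages held neighbours of constant distal regions as well. Of 27 neuronal adhesion genes, all of which border a wide gene-free stretch, 15 were nearest genes (55.6%), led by PCDH10 with 4 regions and PCDH19 with 3. Of 44 homeobox and developmental factor genes 17 were, 40.5% of the 42 that border such a stretch, with 5 regions each at IRX1 and ZEB2. Of 14 B cell genes 3 were, EBF1, PAX5 and BANK1, which are all 3 that border such a stretch (100%), although no B cell marker had a gene-end peak. The region 261 kb from EBF1, a B cell factor, ranked at 92.6, 86.4 and 83.8 in NG and at 94.1, 91.3 and 88.8 in SMG. Of 10 NK cell genes 3 were, KLRB1, GZMB and NCAM1, again all 3 bordering ones (100%). Of 14 myeloid genes 1 was, CEBPB, 1 of the 2 bordering ones, and of 23 cell cycle genes 3 were, MKI67, CCND2 and CCND1, 3 of the 5 bordering ones. Median ranks were 43.7 for the homeobox list, 38.7 for neuronal adhesion, 35.9 for NK cell, 26.1 for cell cycle and 21.97 for myeloid genes. None of 8 erythroid genes and none of 30 ribosomal protein genes was one, and of these 2 lists only 2 genes each border a wide stretch.

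Most of the strongest constant distal regions stood on a raised local background. The background was solved from the fold and −log10 p-value of the peak that also gives the rank. Rank and background are therefore not independent, and a link between them is partly built in. The top one, chr3:93470255-93470913, 402 kb from PROS1, had a score rank of 100 in all 6 libraries and a mean fold of 25.2 ± 2.98 (SD, n = 6) on a local background 71.2 times the library minimum. Next came chr22:18730252-18730838 near FAM246B (fold 27.7 ± 3.67), chr17:22521235-22521690 near KCNJ18 (32.3 ± 2.92) and a pair on chromosome 21 near TPTE (22.6 ± 1.70 and 23.3). The pair on chromosome 4 near CWH43 reached folds of only 7.84 and 8.09, on backgrounds 45.3 and 45.1 times the minimum. The others of the top 10 lay near LINC02798, EMB and MYO16, and the region near MYO16, chr13:109424028-109424437, had a fold of 30.3 at a background of 4.36. Outside the widest intervals the 10 strongest also included regions near NFE2L3, FRG2B, MAN2A1 and KCNH8. The last, chr3:18891525-18892611, lies between KCNH8 and SATB1, a chromatin organiser of thymocytes, and ranked between 99.7 and 99.9 in all 6 libraries.

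A local background over 5 times the library minimum was found for 117 distal regions (5.21%), of which 49 lay in the widest intervals, against 6.16% of all constant regions. Their median score rank was 83.4, a value that is not independent of the background, which comes from the same peak. The 5 regions farthest from a protein-coding gene lay near OR11H1 on chromosome 22, at 4158 kb and a mean rank of 21.7, near LOC124903767 on chromosome 16 (90.01 and 43.9) and near LINC02798 on chromosome 1 (97.3 and 99.9). Most neighbours with many regions border the centromeric intervals, with LINC02798 the nearest gene of 83, EMB of 78, ZNF254 of 51, ZNF33B of 50, UQCRFS1 of 33, ZNF37A of 16 and H3-7 of 16. LOC102723475, beside ribosomal RNA genes of chromosome 21, was the nearest gene of 23 and LOC124903767 and ALG10 of 12 each.

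**Figure D5:**
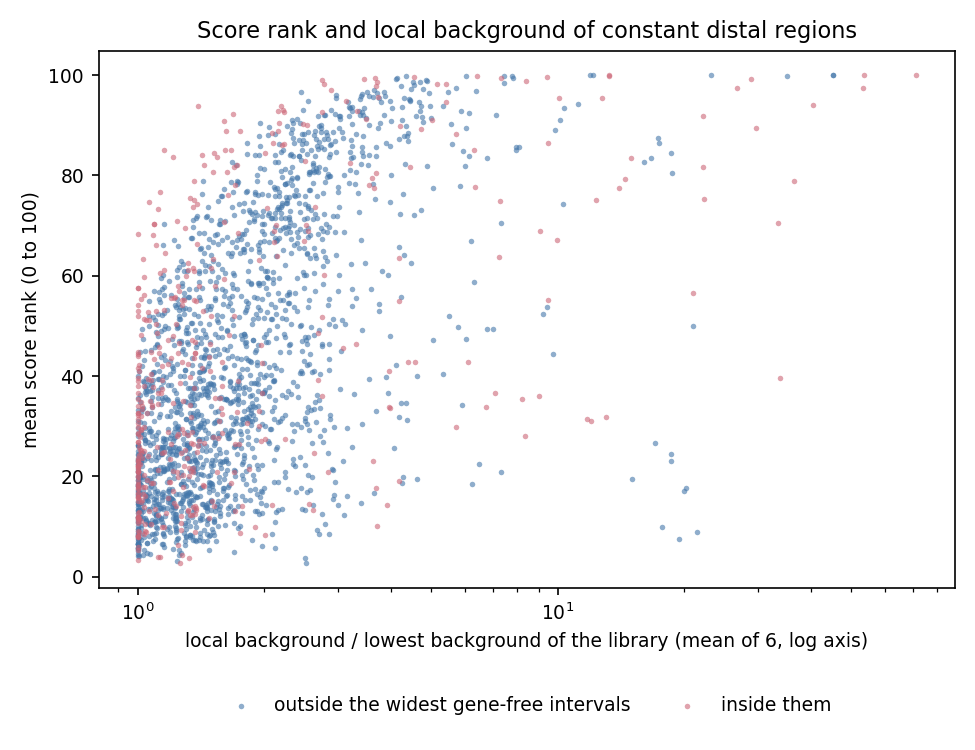
Mean score rank over 6 libraries (y axis, 0 to 100) of each constant distal region against its local background over the lowest background of the library (x axis, log scale, mean of 6), inside (red) and outside (blue) the widest gene-free intervals. The region near PROS1 sits farthest right at 71.2 with a rank of 100, and the 117 regions past 5 have a median rank of 83.4. Both axes come from values of the same peaks and are not independent.

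Genes of other types lay under the centre of 148 regions (6.59%), with a median score rank of 40.7. Pseudogenes accounted for 111 and ribosomal RNA genes for 9, all on chromosome 21, with a median rank of 82.7. Ranks differed within these genes: the 3 regions over the 18S genes RNA18SN1, RNA18SN2 and RNA18SN3 ranked at 86.4, 84.4 and 80.6, while some regions over 28S genes ranked as low as 7.52. The local background was 15.0 to 19.9 times the library minimum at all 9, and the copies are near-identical, so reads could have been placed on any of them. Small nuclear RNA genes lay under 3 regions. The region over RNU1-4, a gene of the U1 splicing RNA, chr1:16740021-16741260, ranked at 99.2, 99.1 and 99.5 in NG and at 99.7, 98.9 and 99.9 in SMG. The tRNA gene TRX-CAT1-6 lay under 1 region with a mean rank of 31.0.

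The gene table does not class antigen receptor gene segments as protein-coding or lncRNA genes, so these loci counted as intergenic, and 25 of the regions lay inside 1 of 6 such loci. The T-cell receptor alpha locus held 5 constant regions, all distal by the rule, at ranks of 9.59 to 48.8. Their median was 19.6, 16.2 and 16.5 in NG and 31.3, 34.3 and 43.4 in SMG, higher in each SMG library than in any NG library. Not every region ranked higher in SMG. Mean ranks in NG and SMG, in order along the locus, were 12.8 and 36.4, 45.5 and 52.0, and 12.3 and 6.84. The last regions had 27.8 and 22.5, and 23.3 and 53.4. This locus was picked out after its values were seen, its regions are neighbours, and limma called none of them. The beta locus held 7, whose medians of 39.7, 12.8 and 18.8 in NG and 13.02, 27.1 and 24.5 in SMG overlapped, and the gamma locus held 1. The immunoglobulin heavy chain locus held 9 with a median rank of 30.0, the kappa locus 2 and the lambda locus 1. At the kappa locus chr2:89584944-89586074 ranked between 90.7 and 98.9 in all 6 libraries.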

How the data were processed

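Each library came as 1 peak list in narrowPeak layout, deposited by the authors. The build, hg38, and the tools MACS2, BWA, Bowtie, SAMtools and FastQC are named per the submitters' processing notes. No source used here gives their versions or settings, how duplicates were handled, or whether reads were shifted. The deposited peak names show that calling was done library by library. The deposited score is about 10 times the −log10 q-value of a peak, the deposited fold is a linear ratio of summit height to local background, and the −log10 q-value and −log10 p-value are the peak caller's own, as deposited. Summit pileup and local background were solved from fold and −log10 p-value with the formulas of MACS2, for 99.981 to 99.993% of peaks within 0.001. These stand in for depth, since the lists hold no read counts.

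Scores were used only as ranks within a library over the regions held by all 6. The fit was limma 3.58.1 (R 4.3.3) on normal scores of the rank, SMG minus NG, with Benjamini-Hochberg adjustment over 23303 regions, tested on simulated data. Library values were compared with exact permutation tests over 3 against 3 libraries, and classes within libraries with exact sign-flip tests, in Python 3.11.15. Gene positions came from RefSeq (GRCh38.p14), 59792 rows with a position. The planned motif search of all regions covered only RefSeq start windows, for want of a genome sequence of the build. Groupings by widest interval, receptor locus and other gene types were added after the values were seen.

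The members and gene lists were chosen with earlier results of these data known. Named regions were the 10 with the highest mean score rank, the 5 farthest from a gene, the 3 just inside and the 3 just outside the limit of 50 kb, the 5 with the smallest p in each direction and the 3 densest groups. Named genes were the 10 nearest to most regions and up to 4 nearest genes a list. Other regions and genes were named after their values were seen, and a few that meet these rules are not reported here. Alternatives were other distances, a stricter score, another merging overlap, ranks by fold, single-peak regions, each library left out, a replicate block and another variance model.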

Additional observations from a re-analysis of the deposited data

How the results depend on the processing

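Of 104 alternative values, 82 stayed the same, 14 were weaker, 7 reversed and 1 moved. For counts, the same meant an equal or similar count, and for other values the same direction and side of the threshold. Of the 82, 16 were limma counts of 0 for score, 15 were limma counts of 0 for width and 5 were counts of regions. Such counts have no direction. Another 12, 9 and 12 were the distal share, median rank and median width compared between groups, where no exact permutation p can be below 0.1. For these, the same meant only the same direction. Differences between classes could not be labelled the same with 1 library left out, since 5 libraries allow no sign-flip p below 0.0625. A score of at least 50 left 1489 constant distal regions in place of 2247. The difference in median score rank between SMG and NG (−0.274) turned to 0.341 with a limit of 25 kb and to 1.11 when ranked by fold. It was 0.0486 without the widest gene-free intervals, an alternative chosen after seeing the data, and between −1.15 and 1.43 with 1 library left out. The width difference (22.3 bp) was between −1.67 and 44.8 bp with 1 library left out. The difference between distal regions and regions deep inside genes (−2.47) stayed the same in 5 of 14 alternatives. It was −1.16 at 25 kb and −1.57 by fold, both with a p above 0.05, and 1.63 at a score of at least 50. With 1 library left out it was between −2.77 and −1.54, and against gene ends between −27.3 and −26.0, where 5 libraries allow no p below 0.0625. The causes were not tested.

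A gene table without 789 rows out of genome order, also chosen after seeing the data, changed no call. limma called 0 distal regions for score or width under every alternative run. With the replicate number as a block it called 0 for both. Same-numbered libraries did not deviate together, with correlations between −0.0212 and 0.0018 for score and between −0.0165 and 0.0276 for width, so the numbers were not taken as pairs. Depth is known only through the recovered background.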
